A study of Mus musculus with 10 samples.

Results

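The genes of the cytosolic ribosomal proteins were followed across 10 murine pancreatic tumors. They were taken as the protein-coding rows whose mouse symbol is Rpl or Rps with a number, or Rplp0, Rplp1, Rplp2 or Rpsa, without pseudogene symbols and the S6 kinases, and with a mean over the tumors that reached 100 normalized counts. Of the 86 rows with such a symbol 81 reached that mean, out of 55359 rows in the table, of which 24560 were tested. They comprise 47 large subunit genes, 33 small subunit genes and Rps19bp1, whose symbol fits although its product is a binding partner of the ribosomal protein Rps19 and not a ribosomal protein. The lowest means inside the limit were those of Rps10 (390.0) and Rps27rt (456.7), and the highest outside it were those of Rpl24 (67.0) and Rpl36al (42.6), followed by Rpl3l (11.4), Rpl39l (2.54) and Rpl10l, which had no read in any tumor. Fau (S30 fused to a ubiquitin-like protein) encodes a ribosomal protein under another symbol and was therefore not included.

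Each cytosolic ribosome holds 1 copy of nearly every one of these proteins, bound to ribosomal RNA in a small subunit that reads the mRNA and a large subunit that joins amino acids. Cells make the proteins in matched amounts, and the mRNAs, which are short and among the most abundant of a growing cell, share a tract of pyrimidines at their 5′ end (the TOP motif) through which mTORC1 signaling and the La-related protein Larp1 set their translation and stability. In pancreatic cancer, as in other fast-growing tumors, ribosome production is known as a large part of the demand for growth.

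The tumors grew from KPC K8484 cells, a luciferase-expressing mouse pancreatic cancer line derived from a genetically engineered mouse model with Pdx1-Cre, injected into the pancreas of immunocompetent C57BL/6 mice (C57BL/6 J in the methods) that were 10 weeks old. Both groups therefore carried the same cancer cells next to the stroma and immune cells of the host. The 5 control mice drank regular water (CTRL), and the 5 hyperglycemic mice drank water with 30% dextrose (D30), for 14 days, so that the comparison asks how the tumors' RNA differed with the mice's exposure to dextrose. Columns were assigned by their letter, N for CTRL and T for D30 as the only other group. The authors deposited reads divided by 1 size factor per tumor, called normalized counts here, and behind them lay 29192261 to 42122304 reads per tumor. Some libraries stood apart. T4 was the only tumor with reads of Y-linked genes (841 reads over 4 genes) and T5 had the fewest detected genes (20482, against 23446 to 25912 in the others), so main values are also given without T4 or without both. Per the methods, orthotopic experiments used as many male as female mice, but the labels give no sex for any tumor. As a check of the tissue, all 8 ductal epithelial markers were present, and their summed normalized counts ran from 209910 to 335529 in CTRL and from 341312 to 475928 in D30.

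Because the members are grouped in textbooks by the pyrimidine tract at the mRNA start, the 30 bases around the RefSeq start (15 before it and 15 from it on, GRCm38.p6) are shown for the 6 genes that passed the threshold and had an entry, and for Rps10, which had the lowest fold change. Capitals mark the longest run of at least 6 letters C or T on the transcribed strand, and no capitals mean no such run.
Rpl28, chr7:4792950-4792979, plus strand: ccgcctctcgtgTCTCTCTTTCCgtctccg
Rpl38, chr11:114668565-114668594, plus strand: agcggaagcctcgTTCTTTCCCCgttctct
Rplp2, chr7:141447636-141447665, plus strand: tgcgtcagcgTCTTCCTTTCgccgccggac
Rpl37, chr15:5116598-5116627, plus strand: agTTTCCTgggcggaagcttatccacagga
Rpl37a, chr1:72711245-72711274, plus strand: ttccgctcgccggtctaaaaccgcgcatgc
Rpl23, chr11:97782425-97782454, minus strand: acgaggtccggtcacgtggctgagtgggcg
Rps10, chr17:27635230-27635259, minus strand: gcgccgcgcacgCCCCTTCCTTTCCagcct
The run spanned the start in Rpl28, Rpl38 and Rplp2 and in Rps10, lay before it in Rpl37, and was not in the window of Rpl37a and Rpl23. Over the 61 of 81 members with a RefSeq entry, 39 of 72 windows (54.2%) held a run, against 9592 of 32851 windows of all genes (29.2%). Fold changes were alike in both kinds of member, with a median log2 fold change of 0.82 in the 38 with a run in any window and 0.80 in the 23 without. A window depends on the annotated start, which in these genes can lie some bases away from the start in use.

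The ribosomal protein genes made up a larger share of the reads in most D30 tumors. The 81 genes took 9.13% of the reads in N1, 5.73% in N2, 6.47% in N4, 4.82% in N5 and 6.52% in N6, a mean of 6.53% ± 1.61 (SD, n = 5). In D30 they took 6.78% in T1, 8.17% in T2, 15.9% in T4, 8.75% in T5 and 9.86% in T7, a mean of 9.89% ± 3.53 (SD, n = 5). T4 was far above all others, and without it the D30 mean was 8.39% ± 1.29 (SD, n = 4). The groups overlapped through N1, which lay above T1, T2 and T5. Each D30 tumor lay above the other 4 CTRL tumors.

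The same order was seen gene by gene. Against each gene's own mean over the 10 tumors on the log2 scale, 79 of 81 genes were above in T4, 78 in T7, 77 in T5 and 58 in T2, but 17 in T1. In CTRL, 60 were above in N1 and 0 to 3 in N2, N4, N5 and N6. N5 was the lowest of all tumors for 77 genes, N1 the highest CTRL tumor for 74 and T4 the highest of all for 74. Ribosomal protein genes thus ranked the tumors nearly alike, whatever the subunit.

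**Figure D1:**
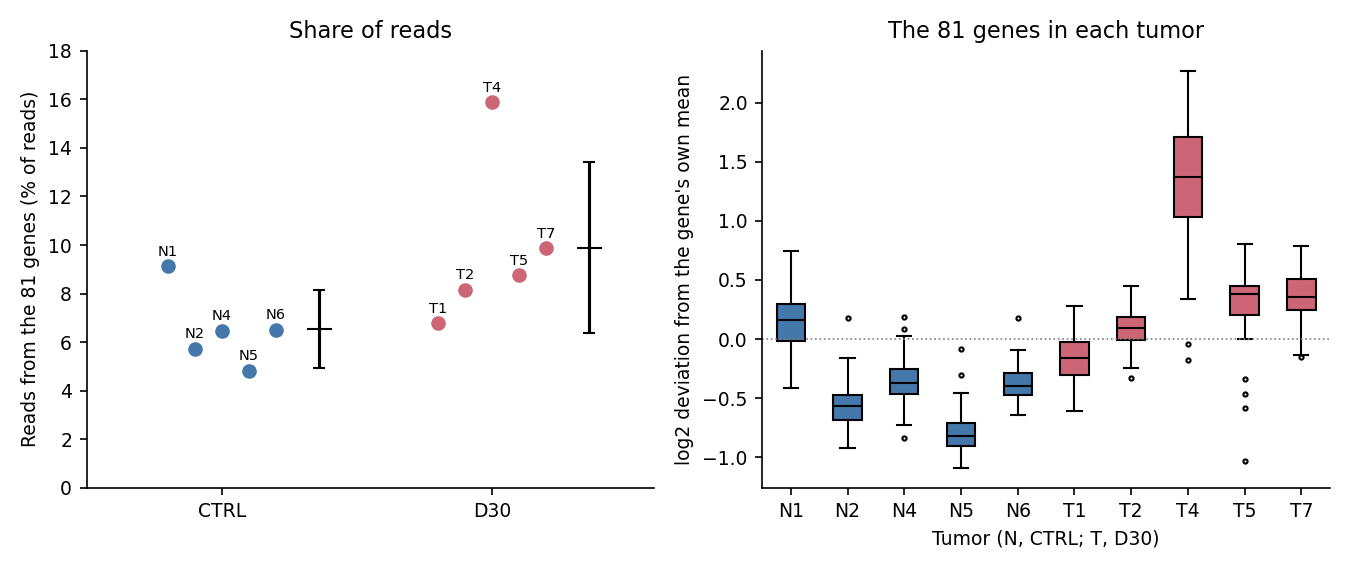
Left, share of reads from the 81 ribosomal protein genes in each tumor (points; black line and bars, mean ± SD, n = 5 per group). Right, log2 deviation of each gene from its own mean over the 10 tumors, as boxes over the 81 genes (line, median; box, quartiles; whiskers, values within 1.5 box lengths; circles, values beyond); T4 lies highest with 15.9% of reads, and N1 is the only CTRL tumor with a median above 0.

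In the test across all genes, 7 of the 81 genes rose in D30 and none fell (limma, adjusted p under 0.05). Of all tested genes 1.4% rose by this call, and 2.76% were called in either direction. The median log2 fold change of the 81 was 0.80, or 1.75-fold, with quartiles at 0.63 and 0.93, while the median of all tested genes was -0.065 with quartiles at -0.48 and 0.33. Fold changes were above 0 for 80 of the 81, against 45.3% of all tested genes, and 58 had an unadjusted p under 0.05 in that direction, against 7.79% of all. The members share their tumors and vary together, so that these counts describe 1 shared shift and not 81 separate results. Large subunit genes had a median of 0.80 with 6 called of 47, and small subunit genes a median of 0.84 with 1 called of 33. Without T4 the median fell to 0.54, yet 18 genes passed, against 3.32% of all tested genes, and without T4 and T5 it was 0.47 with 13 genes called, against 5.09%. edgeR's quasi-likelihood test on the recovered reads called 11 of the 81 (2.67% of all tested rose) and DESeq2 called 32 (3.33% of all), all of them higher. Leaving out N2, N4, N5, N6 or T7 left 3 called genes, beside 0.611%, 0.98%, 0.684%, 0.709% and 0.829% of all tested genes, while leaving out N1 left 4, beside 1.1%, and leaving out T1 gave 12, beside 1.2%. Scaling by library size lowered the median of all tested genes to -0.27 and that of the 81 genes to 0.58, a difference from all genes of 0.85 in place of 0.87.

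Every D30 tumor lay above every CTRL tumor for 14 of the 81 genes (17.3%), against 2.87% of all tested genes. They included the 7 called genes and Rpl8, Rpl11, Rpl18, Rpl23a, Rps16 and Rps26. Leaving out N1 raised that number to 56, against 4.8% of all tested genes, and leaving out T4 left it at 14, against 5.69%.

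Other quantities moved with the groups. Among protein-coding genes outside the set with a mean of at least 1000, the median log2 fold change was 0.47 for principal transcripts under 750 bp (n = 141), 0.27 from 750 bp to under 1500 bp, 0.10 from 1500 bp to under 3000 bp and -0.084 at 3000 bp or more. Without T4 these medians were 0.23, 0.11, 0.074 and 0.020. The 81 genes have principal transcripts of 345 to 5179 bp with a median of 838 bp, and their medians in the same length classes were 0.84 (n = 31), 0.80 (n = 38), 0.65 (n = 10) and 0.88 (n = 2). Without T4 they were 0.58, 0.55, 0.45 and 0.52. The medians of the 81 genes lay above those of the other genes in each class. With all tumors limma called 3.55%, 2.83%, 2.43% and 0.882% of the other genes higher in these classes. Of the 81 genes it called 9.68%, 10.5%, 0% and 0%. The part of transcript length in the shift of the 81 genes was not tested. The share of reads from mitochondrial genes was 1.56% to 2.80% in CTRL and 1.47% to 1.96% in D30, and detected genes numbered 24200 to 25912 and 20482 to 24716. Cell type markers moved too. The summed normalized counts of the 8 fibroblast markers were 76539 to 135533 in CTRL and 26981 to 102553 in D30, and those of the 6 endothelial markers 10987 to 18676 and 5662 to 9672, with Cdh5 called lower. Those of the 8 macrophage markers were 24704 to 37442 in CTRL and 15204 to 33575 in D30, with Csf1r called lower, and those of the 6 neutrophil markers 635 to 3129 and 749 to 15446. The 8 T cell markers summed to 315 to 675 in CTRL and 185 to 349 in D30, with a median log2 fold change of -0.86 and none of the 8 above 0. The 9 acinar markers ran from 274 to 65097 in CTRL and from 144 to 6042 in D30. Among them Amy2b was at 0 in all D30 tumors, but also in N1 and N5. It had 4.57 normalized counts in N4, 31.8 in N2 and 69.3 in N6 (adjusted p = 0.208, limma). Of the 8 ductal markers, 7 had log2 fold changes above 0, up to 1.04, and the other had -3.17. In either direction 6 had an unadjusted p under 0.05. With all tumors limma called none and without T4 3, while edgeR called none and DESeq2 2. In bulk RNA, fewer cells of a type and less RNA per cell cannot be told apart, and the part of cell composition in the shift was not tested.

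**Figure D2:**
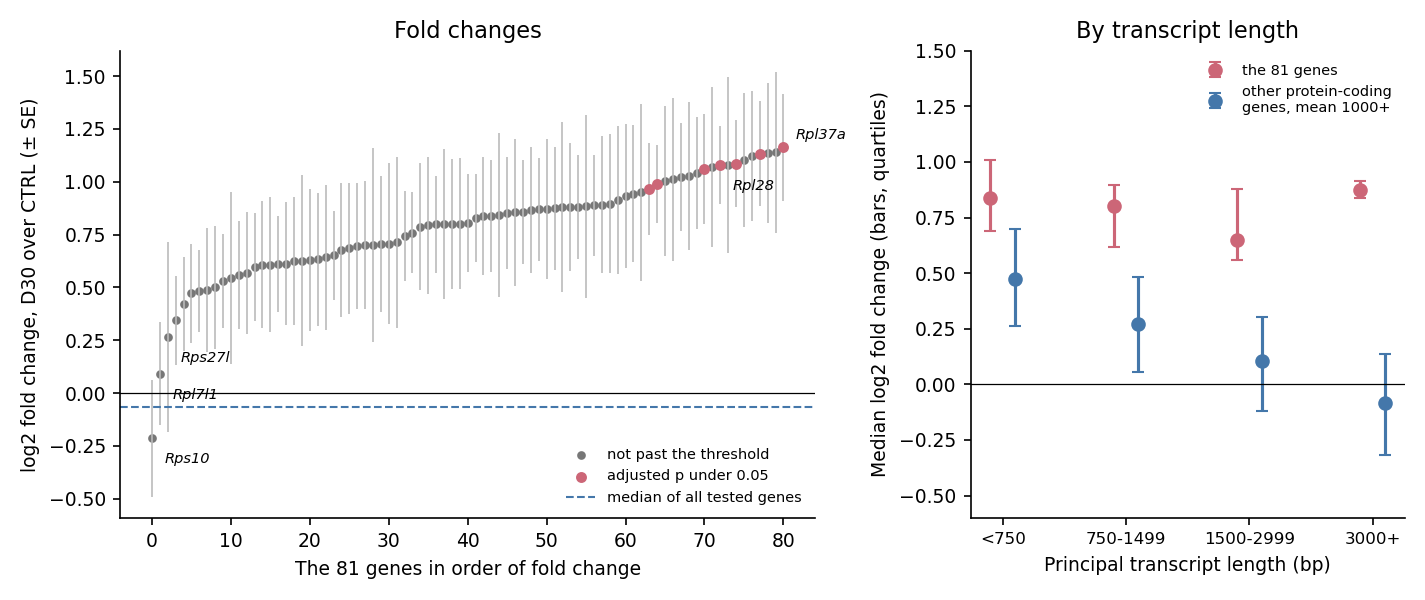
Left, log2 fold change of each of the 81 genes, D30 over CTRL, with its standard error, in rising order (red, adjusted p under 0.05 in limma; dashed line, median of all tested genes); 80 of 81 lie above 0. Right, median log2 fold change with quartiles by length of the principal transcript for the 81 genes and for other protein-coding genes with a mean of at least 1000, where the other genes decline from 0.47 to -0.084 and the 81 genes have 0.84, 0.80, 0.65 and, on 2 genes, 0.88.

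The clearest rise was that of Rpl28 (ENSMUSG00000030432, chromosome 7), a large subunit protein. Its normalized counts were 17209, 15296, 18292, 12828 and 15922 in N1, N2, N4, N5 and N6 and 26878, 31401, 34763, 35789 and 39404 in T1, T2, T4, T5 and T7. The lowest D30 tumor stood well above the highest CTRL tumor, and T4 was in the middle of its group. The means were 15909 ± 2076 and 33647 ± 4739 (SD, n = 5 each), a log2 fold change of 1.08 ± 0.18 (SE) with an adjusted p of 0.0079 (limma).

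Rpl37, Rpl37a and Rps29 encode small proteins that bind zinc. Rpl37 (ENSMUSG00000041841) had 16088, 13196, 13050, 10146 and 13818 normalized counts in CTRL and 22425, 22585, 30901, 27705 and 27540 in D30, and rose by a log2 fold change of 0.99 ± 0.19 (SE, adjusted p = 0.0133, limma). Rps29 (ENSMUSG00000034892), of the small subunit head, had 10988, 11900, 10004, 7168 and 10782 in CTRL and 17059, 18679, 28034, 19340 and 25146 in D30. It was the only small subunit gene called, with a log2 fold change of 1.08 ± 0.21 (SE, adjusted p = 0.0145, limma). Rpl37a (ENSMUSG00000046330) had the highest fold change of all 81 genes, 1.16 ± 0.25 (SE, adjusted p = 0.0272, limma), from 25827, 19995, 20518, 14385 and 20279 in CTRL to 30354, 37690, 74206, 42136 and 48568 in D30. The groups did not overlap in any of these, with T4 highest of D30 in each and farthest from the rest in Rpl37a. Among other zinc-binding proteins, Rps26 (log2 fold change 0.74, adjusted p = 0.0861), Rps27 (1.03, adjusted p = 0.152) and Rps27a (0.87, adjusted p = 0.196) did not pass with limma. Limma without T4 called Rps26 (adjusted p = 0.0408). With all tumors DESeq2 called Rps26 (adjusted p = 0.0187) and Rps27 (adjusted p = 0.0474).

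Rplp2 and Rplp1 form the acidic dimers of the stalk that recruits elongation factors to the large subunit, and Rplp0 anchors them. Rplp2 (ENSMUSG00000025508) had 23721, 21086, 24312, 15136 and 22528 normalized counts in CTRL and 28818, 39870, 69648, 49360 and 53325 in D30, a log2 fold change of 1.13 ± 0.25 (SE, adjusted p = 0.0288, limma). Rplp1 had 35105, 35452, 39658, 23509 and 36571 in CTRL and 39023, 52382, 75748, 78001 and 74049 in D30, where T1 lay just below N4, and its log2 fold change of 0.88 ± 0.25 (SE) did not pass (adjusted p = 0.0797, limma). Rplp0, often used as a reference transcript in quantitative PCR, had 74728 to 146788 in CTRL and 100512, 121556, 321228, 148789 and 142815 in D30. Its log2 fold change was 0.61 ± 0.32 (SE, adjusted p = 0.354, limma) and 0.34 without T4.

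Rpl23 and Rpl38 completed the called genes. Rpl23 (ENSMUSG00000071415), a large subunit protein, had 31441, 25490, 29471, 23545 and 29246 normalized counts in CTRL and 40020, 44779, 79873, 57336 and 56251 in D30, with a log2 fold change of 0.97 ± 0.22 (SE, adjusted p = 0.0328, limma). Rpl38 (ENSMUSG00000057322), known for its part in the translation of Hox mRNAs in the mouse embryo, had 12815, 11381, 10924, 7012 and 10611 in CTRL and 14269, 17364, 36587, 20680 and 24911 in D30. Its log2 fold change of 1.06 ± 0.26 (SE) lay at the threshold (adjusted p = 0.0491, limma). Of the 7 called genes, Rpl28, Rpl37 and Rps29 passed in all 10 fits that left out 1 tumor, Rpl37a in 5, Rplp2 in 4, Rpl23 in 3 and Rpl38 in 2. All 7 passed with edgeR, with DESeq2 and without T4.

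**Figure D3:**
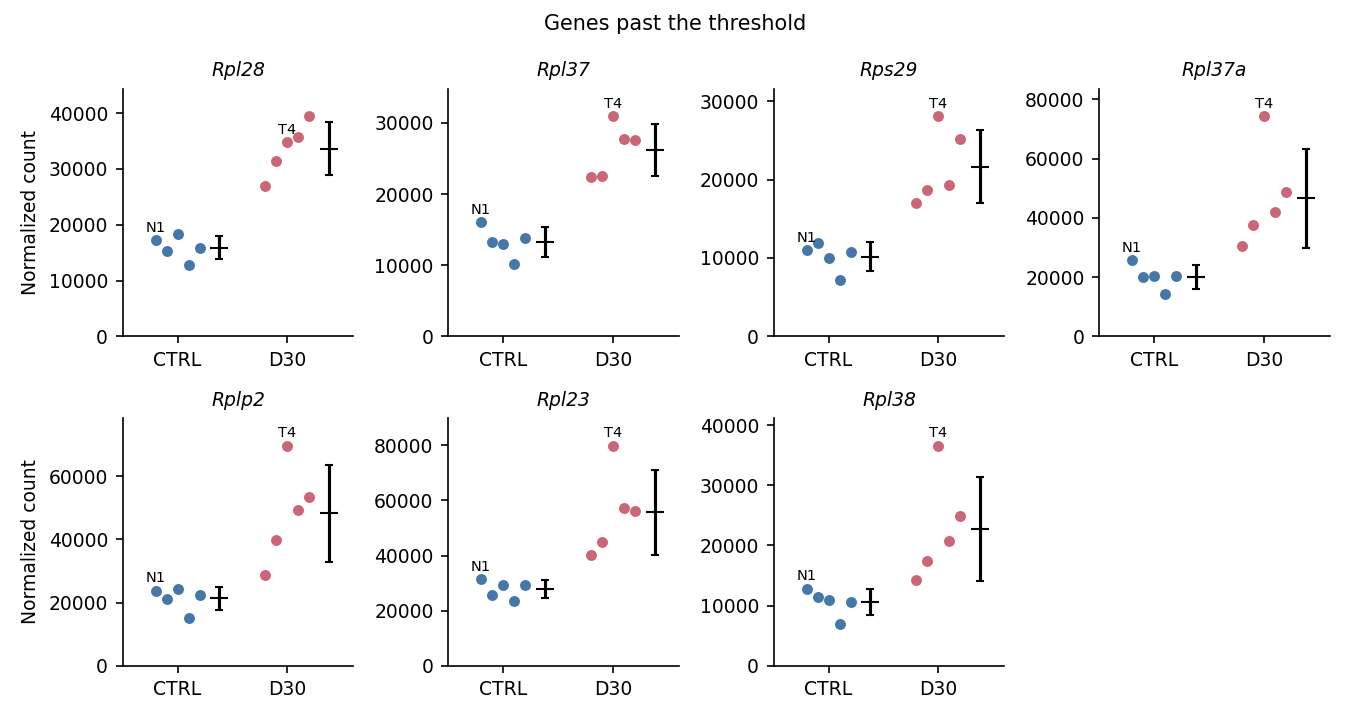
Normalized counts of the 7 ribosomal protein genes with an adjusted p under 0.05, in each CTRL and D30 tumor (points; black line and bars, mean ± SD, n = 5 per group; every axis starts at 0; N1 and T4 are marked). The groups do not overlap in any panel, and T4 is the highest tumor in 6 of the 7 panels.

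A gene's size of change and its passing the test were not the same thing. Rps19, the gene most often mutated in Diamond-Blackfan anaemia, had a log2 fold change of 1.14 ± 0.38 (SE, adjusted p = 0.142, limma), from 26459, 14340, 16787, 13280 and 18388 normalized counts in CTRL to 22374, 28175, 114047, 34701 and 32233 in D30. Rps16 of the small subunit head (1.14, adjusted p = 0.0924, limma) had T4 at 128841 and the other D30 tumors at 35044 to 49568. Without T4 it passed with a log2 fold change of 0.82 (adjusted p = 0.0321, limma), while Rps19 had 0.74 (adjusted p = 0.0543, limma). Rps13, Rps25 and Rpl34 had the largest SD over the 10 tumors (0.93, 0.90 and 0.90 on the log2 scale), with T4 at 109472, 111147 and 70566 and the next D30 tumor at 29618, 27364 and 17839. Rpl4, Rps19bp1 and Rps2 had the smallest SD (0.32, 0.33 and 0.34). Rpl4 lines the exit tunnel, and its values ran from 32049 to 45126 in CTRL and from 42326 to 62638 in D30 (log2 fold change 0.48 ± 0.19 SE, adjusted p = 0.217, limma). Rps2 at the mRNA entry had 65959, 68840, 91835, 52073 and 75750 in CTRL and 89161, 80341, 78184, 113670 and 111551 in D30, with T4 the lowest of its group (0.42 ± 0.22 SE, adjusted p = 0.36, limma).

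T4 did not exceed the other D30 tumors by 1 common factor. Its value over the mean of the other 4 D30 tumors ranged from 0.79 in Rps2, 0.87 in Rps10, 0.96 in Rps26, 1.04 in Rpl28 and 1.11 in Rpl4 to 4.38 in Rps13, 4.43 in Rps15a, 4.63 in Rpl34, 5.16 in Rps25 and 5.42 in Rps27l. The median was 2.45, and 50 of 81 genes were at 2 or more. In the 7 called genes it was 1.04 to 1.90. N1 over the mean of the other 4 CTRL tumors ranged from 0.91 to 2.29 with a median of 1.59. The genes that were high in T4 were high in N1 as well, with Pearson's r of 0.84 and Spearman's rho of 0.82 between the log2 ratios across the 81 genes, which share these libraries and are not independent replicates.

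Base composition and length moved with the same tumors among other genes. In 6733 other protein-coding genes with a mean of at least 1000, the median of T4 over the other D30 tumors was 1.59 for transcripts under 45% GC, 1.03 from 45% to under 50%, 0.70 from 50% to under 55% and 0.50 at 55% or more, and that of N1 over the other CTRL tumors was 1.27, 1.04, 0.87 and 0.71. By length, T4's median was 2.23 under 750 bp and 1.79 from 750 bp to under 1500 bp. It was 1.03 from 1500 bp to under 3000 bp and 0.69 at 3000 bp or more. N1's median ran from 1.39 to 0.86 over these classes. In the same length classes the 81 genes had T4 medians of 2.46 (n = 31), 2.39 (n = 38), 2.16 (n = 10) and 3.35 (n = 2). Under 750 bp the 81 genes and the other genes were closest, with 2.46 against 2.23 in T4 and 1.57 against 1.39 in N1. The 81 genes had a median GC content of 51.6% (40.6% to 60.8%) and T4 medians of 3.27 (n = 5), 2.35 (n = 27), 2.45 (n = 35) and 2.16 (n = 14) in the same GC classes, so they lay above the other genes in each. The log2 fold change of D30 over CTRL in the other genes had medians of 0.013, 0.018, 0.016 and 0.039 in these classes with all tumors, but without T4 they were higher at higher GC, with medians of -0.11, 0.0012, 0.093 and 0.21. Those of the 81 genes were 0.68, 0.85, 0.79 and 0.87 with all tumors and 0.36, 0.62, 0.51 and 0.63 without T4. The part of composition in the pattern of T4 and N1, and in the fold changes, was not tested.

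**Figure D4:**
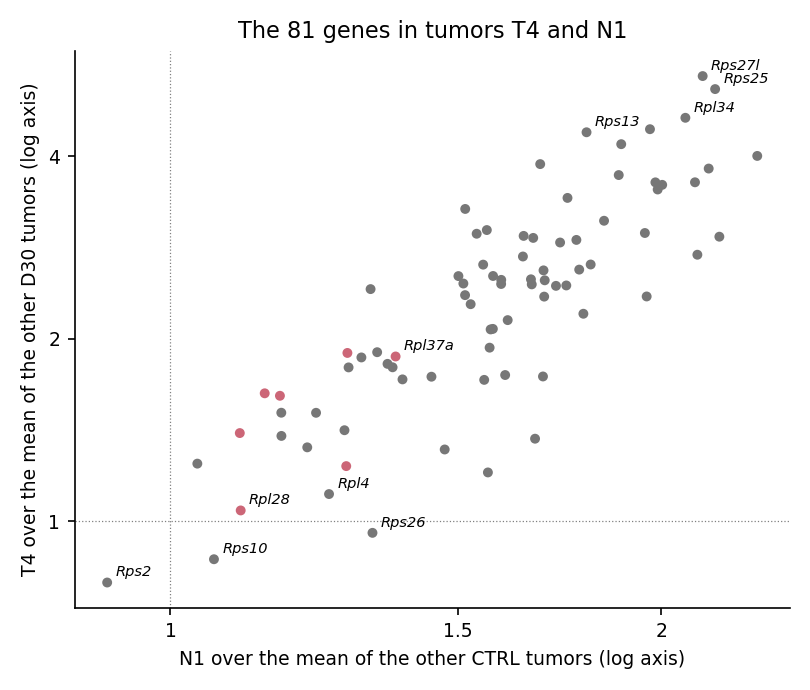
Each point is 1 of the 81 genes, placed by its normalized count in N1 over the mean of the other 4 CTRL tumors and in T4 over the mean of the other 4 D30 tumors (both log axes; red, the 7 called genes; dotted lines, a ratio of 1). T4 ratios run from 0.79 in Rps2 to 5.42 in Rps27l, and genes with a high ratio in T4 had a high ratio in N1.

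Grouped by place in the ribosome, no group had a median log2 fold change below 0. These groups were chosen with values known and some share members, so their counts are a description, beside the 1.4% of all tested genes that limma called higher. The 4 stalk proteins had a median of 0.79, with Rplp2 called by limma and edgeR and DESeq2 calling Rplp1 as well. The 7 proteins of the exit tunnel and its rim had a median of 0.76, and limma called none of them, with 5 at an unadjusted p under 0.05, while edgeR and limma without T4 each called 1 and DESeq2 3. The 6 proteins along the mRNA channel had a median of 0.70, from 0.42 in Rps2 to 1.07 in Rps3, and limma and edgeR called none, with 4 at an unadjusted p under 0.05, while limma without T4 called 1 and DESeq2 4. A group of 6 zinc-binding proteins had a median of 1.01, with 3 called by limma and edgeR, 4 by limma without T4 and 5 by DESeq2. Rpl36a, which also binds zinc and was not in that group, had a log2 fold change of 0.85 (adjusted p = 0.114, limma). Rps27l, the relative of Rps27, was not in it either and had 0.27 (adjusted p = 0.81, limma), and -0.22 without T4. A group of 9 genes was taken from those mutated in Diamond-Blackfan anaemia and does not hold all of them. Of these 9, 8 had fold changes above 0, with a median of 0.83. Limma called none of the 9, with 7 at an unadjusted p under 0.05, while edgeR called 1, limma without T4 3 and DESeq2 4. In the pair that binds 5S ribosomal RNA and can hold the p53 ubiquitin ligase Mdm2, Rpl11 had 10756 to 17103 normalized counts in CTRL and 18418 to 39416 in D30 (log2 fold change 0.80 ± 0.23 SE, adjusted p = 0.0902, limma). Rpl5 had 63135, 31127, 33758, 30930 and 37825 in CTRL and 31172, 42748, 176029, 52365 and 41827 in D30, where N1 exceeded every D30 tumor but T4 (0.55 ± 0.41 SE, adjusted p = 0.532, limma). Rps6, the small subunit protein phosphorylated downstream of mTORC1, had 16261 to 33326 in CTRL and 23543 to 70869 in D30 (0.70 ± 0.30 SE, adjusted p = 0.257, limma). Rpsa, which is also known as a laminin receptor, had 55336 to 125192 and 84336 to 207240 (0.62 ± 0.30 SE, adjusted p = 0.313, limma).

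The balance of the subunits stayed narrow while their level moved. Summed per kilobase of principal transcript, the large subunit genes came to 1.22, 1.24, 1.22, 1.24 and 1.19 times the small subunit genes in N1, N2, N4, N5 and N6 and to 1.25, 1.19, 1.20, 1.29 and 1.15 times in T1, T2, T4, T5 and T7. The means were 1.22 ± 0.018 and 1.22 ± 0.054 (SD, n = 5 each), and the D30 values lay on both sides of the CTRL range. T4, with the highest share of ribosomal protein reads, had a ratio of 1.20, near the lower end of the CTRL range. Its place depended on the measure of length. With the union of all exons it had 1.47, below the CTRL range of 1.49 to 1.54. Without division by length it had 1.30, below the CTRL range of 1.36 to 1.44.

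Levels per kilobase of principal transcript differed widely between the genes, by 283-fold from the lowest, Rps10, to the highest. The 10th and 90th percentiles were 7530 and 80203 normalized counts per kilobase. The mean over the 10 tumors was highest in Rps21 (124402 normalized counts per kb), Rps12 (111746), Rps18 (106120), Rpl32 (103989) and Rps27 (99887), and the median gene had 39419. Their log2 fold changes were 0.61, 0.84, 0.56, 0.63 and 1.03, and limma and edgeR called none of the 5, while Rps12, Rps18 and Rps27 had an unadjusted p under 0.05 and DESeq2 called Rps27 (adjusted p = 0.0474). The lowest were Rps10 (440 per kb), Rps19bp1 (1013), Rps27rt (1221), Rpl7l1 (1431) and Rpl13a (1671). Rps10 and Rpl13a encode core ribosomal proteins, and both overlap another annotated gene on the same strand, Rps10 the readthrough gene RPS10-NUDT3 and Rpl13a Gm45713. Rpl24 and Rpl36al, below the mean limit, overlap Gm28037 and Gm49383 in the same way. Reads in such overlaps may have been left out or assigned to the other gene, so the levels of these 4 genes are uncertain. Rps10 was the only one of the 81 with a fold change below 0, from 427, 427, 399, 354 and 426 normalized counts in CTRL to 373, 392, 332, 183 and 586 in D30 (log2 fold change -0.21 ± 0.28 SE, adjusted p = 0.741, limma). Adding the rows of the pseudogenes that carry its name turned its fold change to 0.24 (adjusted p = 0.61, limma), and leaving out T5 turned it to 0.017. The 300 pseudogene rows named after a gene of this kind, 298 of them after members, together held 0.033% to 0.12% of the reads of a tumor.

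Some ribosomal proteins have a second gene, and the ratio of the pair shows whether both moved alike. In 6 pairs the log2 ratio of the second gene to the first was compared between groups by a two-sided exact permutation test, with p adjusted over the 6 pairs. The smallest p that 5 against 5 tumors can give is 0.00794. Rpl7l1, whose product acts in large subunit assembly and which shares 51.3% of aligned coding bases with Rpl7, had a log2 ratio to Rpl7 of -3.33, -3.34, -3.74, -3.26 and -3.37 in CTRL and of -3.87, -4.05, -3.79, -5.20 and -4.12 in D30. All D30 tumors lay below all CTRL tumors, although T4 and N4 were close, and the mean difference was -0.80 (exact permutation p = 0.00794, adjusted p = 0.0476). Rpl7l1 itself differed little, with 2915 to 5321 normalized counts in CTRL and 2403 to 5859 in D30 (log2 fold change 0.092 ± 0.24 SE, adjusted p = 0.886, limma). Rpl7 had 27963 to 53593 and 51912 to 88198 (0.89 ± 0.24 SE, adjusted p = 0.0669, limma).

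Rps27l is a p53-responsive relative of Rps27. The first 90 coding bases of both are shown because their difference lets reads of the 2 genes be told apart (GENCODE M21 transcripts, GRCm38), with capitals at the bases of Rps27l that differ from Rps27.
Rps27, chr3:90212522-90213651, minus strand: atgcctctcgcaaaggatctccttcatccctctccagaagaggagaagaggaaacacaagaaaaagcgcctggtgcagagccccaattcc
Rps27l, chr9:66946086-66949516, plus strand: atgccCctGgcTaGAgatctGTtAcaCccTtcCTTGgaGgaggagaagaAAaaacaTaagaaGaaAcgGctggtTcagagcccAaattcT
In this stretch 24 bases differed, and 61 did over the whole coding sequence of 255 bases (76.1% identical). The log2 ratio of Rps27l to Rps27 was -2.91, -2.99, -2.94, -2.98 and -2.78 in CTRL, a narrow range, and -3.49, -3.87, -2.92, -4.02 and -4.10 in D30. T4 lay within the CTRL range and the other 4 D30 tumors below it. The mean difference was -0.76 (exact permutation p = 0.0317, adjusted p = 0.0952), and -0.95 without T4. Rps27l had 1897 to 4995 normalized counts in CTRL and 2147, 2370, 12690, 2160 and 2680 in D30, a log2 fold change of 0.27 ± 0.45 (SE, adjusted p = 0.81, limma) that turned to -0.22 without T4.

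The remaining pairs did not pass. The ratio of Rpl22l1 to Rpl22 differed by 0.039 (exact permutation p = 0.81, adjusted p = 0.81), with both genes at similar fold changes of 0.91 and 0.87. Rpl36al to Rpl36a differed by -0.26 (exact permutation p = 0.143, adjusted p = 0.286) and Rpl3l to Rpl3 by -0.52 (exact permutation p = 0.587, adjusted p = 0.79), the latter on 1.07 to 30.9 normalized counts of Rpl3l per tumor. Rps27rt, a retrotransposed copy on chromosome 9 whose coding sequence is identical to that of Rps27 over all 255 bases, had a log2 ratio to Rps27 of -6.37 to -6.11 in all 10 tumors, and the groups differed by -0.023 (exact permutation p = 0.659, adjusted p = 0.79). Reads within the coding part cannot be told apart between these 2 genes, so the level of Rps27rt is uncertain.

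**Figure D5:**
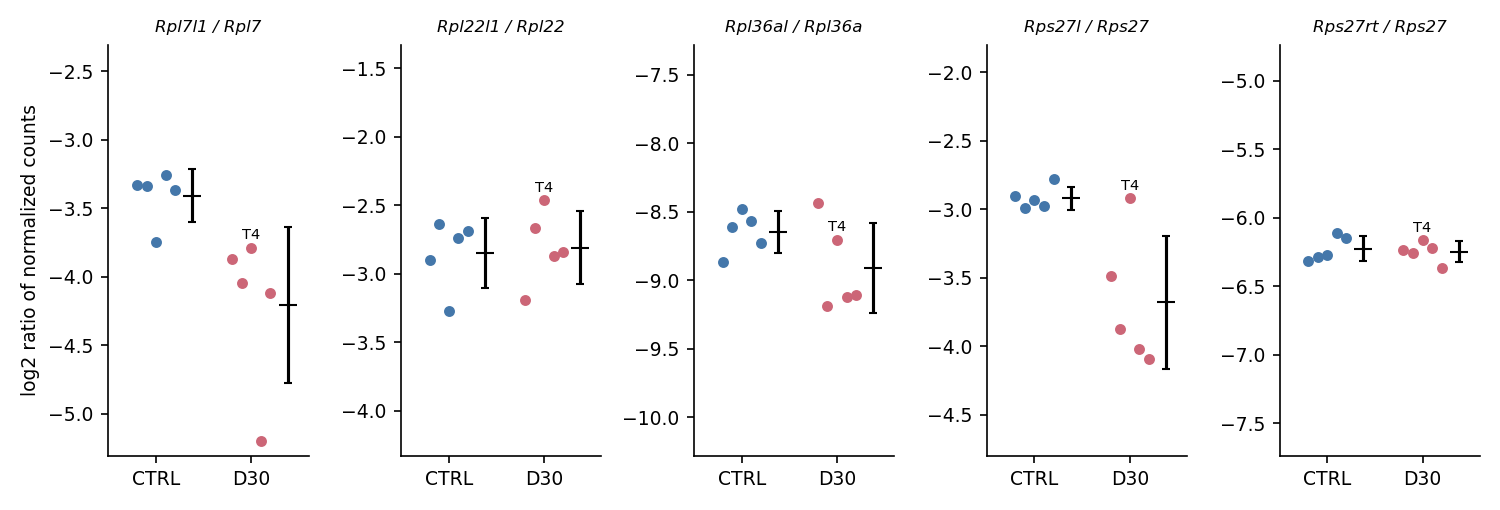
Log2 ratio of the normalized counts of a second gene to those of the first in each tumor, for 5 of the 6 pairs (points; black line and bars, mean ± SD, n = 5 per group; T4 is marked; all panels span 3 log2 units). All D30 tumors lie below all CTRL tumors for Rpl7l1 over Rpl7, T4 alone lies with CTRL for Rps27l over Rps27, and Rps27rt over Rps27 stays between -6.37 and -6.11.

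Other genes of translation were counted in lists compiled by hand. Of 17 elongation factors and other mRNAs with a pyrimidine tract, 2 rose and none fell, and all 17 had fold changes above 0, with a median log2 fold change of 0.56. Without T4 limma called 6 of them. Among those that rose, Tpt1, the translationally controlled tumor protein, had 57736 to 120541 normalized counts in CTRL and 128746 to 278485 in D30 without overlap (1.23 ± 0.28 SE, adjusted p = 0.034, limma). Of 11 tested snoRNA host genes, which are transcripts with a pyrimidine tract that carry small nucleolar RNAs in their introns, none was called by limma, 6 had an unadjusted p under 0.05, edgeR called 1 and DESeq2 2, and the median was 0.53. Without T4 that median was 0.35 and limma called 2, Snhg8 (adjusted p = 0.0301) and Gas5 (adjusted p = 0.0424). With all tumors the nearest to the threshold were Snhg8 (1.13, adjusted p = 0.06) and Gas5 (0.78, adjusted p = 0.0819).

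The machinery that builds ribosomes and starts translation showed smaller values. Of 31 initiation factors none was called by limma, edgeR or DESeq2, 6 had an unadjusted p under 0.05 and the median log2 fold change was 0.23, led by Eif3k (0.67, adjusted p = 0.165) and Eif4g3 (0.71, adjusted p = 0.17). Of 50 ribosome biogenesis genes none was called by any of the 3 tools, 3 had an unadjusted p under 0.05 and the median was 0.034, with Heatr1 at -0.64 (adjusted p = 0.196) and Imp4 at 0.42 (adjusted p = 0.196). Of 11 genes of RNA polymerase I none was called by any tool and none had an unadjusted p under 0.05, with a median of -0.017 and values of -0.58 in Polr1b and 0.48 in Polr1d. Of 18 genes of mTORC1 and of the control of these mRNAs, limma and edgeR called none, DESeq2 and limma without T4 each called 1 and 2 had an unadjusted p under 0.05, with a median of -0.070. Eif4ebp1, the translation inhibitor that mTORC1 inactivates, had 0.78 (adjusted p = 0.132) and Mlst8, a subunit of mTORC1, -0.52 (adjusted p = 0.19).

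Complexes of like size served as a comparison. Of 77 tested mitochondrial ribosomal protein genes none was called by limma, edgeR or DESeq2, 10 had an unadjusted p under 0.05, and 64 had fold changes above 0 with a median of 0.17. Of 40 proteasome subunit genes none was called by any of the 3 tools, 2 had an unadjusted p under 0.05 and the median was 0.11. Without T4 the medians of these lists were 0.0036 and -0.068, against 0.54 for the cytosolic ribosomal protein genes and 0.55 for the other mRNAs with a pyrimidine tract. Median principal transcripts were 1316 bp for the mitochondrial ribosomal protein genes, 1540.5 bp for the proteasome genes and 838 bp for the 81 genes, so the lists also differed in length.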

How the data were processed

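RNA was sequenced from 5 CTRL and 5 D30 tumors. Per the labels and methods, strand-specific libraries were trimmed with Trim Galore, aligned with STAR 2.7.0e and normalized with DESeq2, and RSEM is named as well. The methods name hg38, the submitters' processing notes GRCm39, and the table holds mouse Ensembl identifiers; annotation and counting settings are not given in the sources used here. The authors deposited a normalized signal, counts divided by 1 size factor per tumor. Dividing by each column's step gave whole reads (within 0.01) for 100.0% of values, 29192261 to 42122304 per tumor.

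Identifiers matched GENCODE M21 without version for 52083 of 55359 rows (94.1%). Since the values are normalized, limma 3.58.1 (R 4.3.3) with a trend on log2(normalized count + 1) was used for genes with a mean of at least 1, so that fold changes are on that scale, and p values were adjusted by Benjamini-Hochberg. edgeR 4.0.16, DESeq2 1.42.0, other scalings, pseudocounts, filters and tumors left out were alternatives. The tests were first tried on simulated data. Single ratios were compared by exact permutation (scipy 1.17.1). Levels between genes are per kilobase of the principal transcript, and sequences are from RefSeq (GRCm38.p6) and GENCODE.

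The members and lists were chosen with earlier results of these data known. Members named are those called, the 5 highest and 5 lowest by fold change and by level per kilobase, the 3 most and 3 least variable, the paralog pairs, Rps6, Rpl5, Rpl11, Rplp0, Rplp1, Rplp2 and Rpsa. Of other lists, the called genes and the 2 of smallest p are named. Further members are named as extremes or in groups by place in the ribosome, after their values were seen. The values of some genes that meet these rules are not reported here. Since columns were tied to groups and not to mice, p values measure the spread between these tumors.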

Additional observations from a re-analysis of the deposited data

Results flagged for a closer look

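Of 90 groups of 5 tumors, 25 held a tumor whose gap to the nearest other, divided by the group's range, exceeded Dixon's limit for 5 samples, where chance flags about 1 in 20 groups. T4 stood apart in 14 and N1 in 8, and since the genes vary together these are not separate events.

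T4 was far above the other D30 tumors in Rps27l (gap over range 0.949), Rpl34 (0.882), Rps13 (0.872), Rps25 (0.872), Rps19 (0.866), Rps12 (0.858), Rpl5 (0.854), Rps16 (0.845), Rpl32 (0.831), Rpl22l1 (0.813), Rpl22 (0.804), Rps6 (0.804), Rplp0 (0.781) and Rps27rt (0.77). N1 was far above the other CTRL tumors in Rpl7l1 (0.859), Rps27 (0.816), Rps27rt (0.809), Rpl5 (0.786), Rps25 (0.755), Rpl34 (0.729), Rps27l (0.727) and Rps12 (0.711). The genes Rps27l, Rps12, Rps27rt, Rps25, Rpl34 and Rpl5 stood out in both tumors.

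N5 was far below the other CTRL tumors in Rplp1 (0.718). In the log2 ratio of Rpl7l1 to Rpl7, N4 (0.773) lay below the other CTRL tumors and T5 (0.764) below the other D30 tumors.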

How the results depend on the processing

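Over 21 alternatives the median log2 fold change of the 81 ribosomal protein genes stayed above 0, from 0.47 without T4 and T5 (chosen after seeing the data) to 0.95 without N1. The number of called genes was less stable. It was 7, and became 11 with a filter at a mean of 10, 11 with edgeR, 32 with DESeq2, 13 without T4 and T5, 3 without N2, N4, N5, N6 or T7, 4 without N1, 12 without T1 and 18 without T4, the range without 1 tumor being 3 to 18. Called genes over the whole table numbered 678, and 1858 with DESeq2, 2418 without T4 and T5, and 279 to 1573 without 1 tumor. Members without overlap between groups numbered 14, and 14 to 56 without 1 tumor, highest without N1. Genes called over the other lists numbered 2, and 1 without a filter, 7 with DESeq2, 13 without T4 and T5, and 0 to 9 without 1 tumor.

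The difference in the large to small subunit ratio was -0.0075, and ran from -0.026 to 0.0088 without 1 tumor, above 0 without T7. The difference in the log2 ratio of Rpl7l1 to Rpl7 was -0.90 to -0.55 without 1 tumor and -0.60 without T4 and T5, and that of Rps27l to Rps27 -0.95 to -0.66. With 9 tumors the smallest adjusted p that 1 pair alone can reach in the exact permutation test is 0.0952, the value of Rpl7l1 to Rpl7 in every such fit but that without T4, where both pairs had 0.0476. Without T4 and T5 it was 0.107.

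List medians near 0 moved, and some of them changed sign. With library-size scaling, which lowers the median of all genes, they were 0.0068 for initiation, -0.19 for ribosome biogenesis, -0.24 for RNA polymerase I, -0.29 for mTORC1, -0.050 for mitochondrial ribosomal proteins and -0.11 for the proteasome. For RNA polymerase I the median was 0.029 with upper-quartile scaling, 0.065 with edgeR, 0.052 with DESeq2 and 0.14 without T4 and T5, where mTORC1 had 0.089 and the proteasome -0.092. Without 1 tumor the medians ran from -0.026 to 0.11 for ribosome biogenesis, -0.13 to 0.11 for RNA polymerase I, -0.18 to 0.046 for mTORC1 and -0.068 to 0.22 for the proteasome. Among single genes Rps10 turned to 0.24 with pseudogene rows added and 0.12 without T4 and T5 (-0.40 to 0.017 without 1 tumor), Rpl7l1 to -0.13 with library-size scaling (-0.072 to 0.25) and Rps27l to -0.19 without T4 and T5 (-0.22 to 0.49). Beyond these scalings and smaller sets of tumors, the cause of each change was not tested.

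No paired analysis was possible because the columns carry no replicate number of the labels. Depth did not limit the 81 genes, whose means ran from 390.0 normalized counts up, but did limit Rpl3l and Rpl39l.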
